A study of Mus musculus with 4 samples.

Results

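The genes described here encode the subunits of oxidative phosphorylation that are made from nuclear DNA. They were the rows of the deposited expression table whose symbols begin with the subunit names Nduf (a, b, c, s or v and a number), Uqcr, Cox4 to Cox8 or Atp5, without Cox7b2 and without symbols ending in Rik or -ps. The rule found 80 of 23235 gene symbols: 37 of complex I, 8 of complex III, 18 of complex IV and 17 of complex V. By the roles known for these genes, 70 encode subunits used in most tissues, here called common subunits, and 7 encode tissue isoforms or paralogs (Ndufa4l2, Cox4i2, Cox6a2, Cox6b2, Cox7a1, Cox8b and Cox8c). The remaining 3 carry the name but are not subunits: Cox4nb (Emc8) belongs to a complex of the endoplasmic reticulum membrane, and Atp5s (Dmac2l) and Atp5sl (Dmac2) encode an ATP synthase coupling factor and a complex I assembly protein. Ndufa4 is counted with complex I by its name, although its protein is now known as a subunit of complex IV. Complex II, Ndufab1, Cyc1 and cytochrome c lie outside the rule and are given with the other genes of the pathway, and the 13 subunits encoded in mitochondrial DNA were not analysed here.

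RNA was sequenced from 4 mouse cultures, 1 library each, so no difference below has a replicate check and no test was possible. Wild-type embryonic stem cells (WT_ES) of the J1 line, strain 129S4/SvJae, were kept in serum with leukemia inhibitory factor and taken at day 0; embryonic stem cells that lack the de novo DNA methyltransferases Dnmt3a and Dnmt3b (DKO_ES) were handled in the same way. Neural progenitor cells (WT_NP and DKO_NP) were derived from both lines by growth as embryoid bodies for 4 days and exposure to retinoic acid for 2 days, and were taken at day 6. Both lines had grown on irradiated feeder cells at earlier passages, and whether the double knockout is 1 clone is not given in the sources used here.

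Oxidative phosphorylation turns the energy of nutrients into ATP at the inner mitochondrial membrane. Complex I passes electrons from NADH to ubiquinone, complex III passes them on to cytochrome c, complex IV delivers them to oxygen, and complex V, the ATP synthase, uses the proton gradient that the other complexes build. Each of these complexes joins nuclear-encoded subunits with a few encoded in mitochondrial DNA. Pluripotent cells are known for a high rate of glycolysis and for mitochondria with few cristae.

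Many nuclear genes of respiratory subunits are known to share promoter motifs of the factors NRF1, GABPA (an ETS factor) and YY1, and the promoters below are shown because they hold such motifs in members whose levels are described later. RefSeq (GRCm38.p6) gave a promoter window of 300 bases, 250 before and 50 after the start of transcription, for 65 of the 80 members, with 71 windows in all. The 250 bases before the start are printed 5′ to 3′ on the gene's strand. In the first 3, capitals mark the NRF1 core CGCATGCG, the ETS core CCGGAAG, the YY1 core AAGATGGC and the E-box CACGTG on either strand.
Atp5j, chr16:84834977-84835226, - strand: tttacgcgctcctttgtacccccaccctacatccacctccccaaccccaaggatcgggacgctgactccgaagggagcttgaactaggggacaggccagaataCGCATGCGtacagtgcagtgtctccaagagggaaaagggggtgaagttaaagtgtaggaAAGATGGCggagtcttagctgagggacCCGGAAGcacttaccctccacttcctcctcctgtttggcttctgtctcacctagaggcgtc
Atp5l, chr9:44920743-44920992, - strand: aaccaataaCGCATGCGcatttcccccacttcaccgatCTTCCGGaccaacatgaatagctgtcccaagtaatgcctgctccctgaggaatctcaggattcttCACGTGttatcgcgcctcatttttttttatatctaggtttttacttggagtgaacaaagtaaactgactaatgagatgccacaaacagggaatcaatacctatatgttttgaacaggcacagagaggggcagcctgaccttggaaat
Cox6a1, chr5:115348959-115349208, - strand: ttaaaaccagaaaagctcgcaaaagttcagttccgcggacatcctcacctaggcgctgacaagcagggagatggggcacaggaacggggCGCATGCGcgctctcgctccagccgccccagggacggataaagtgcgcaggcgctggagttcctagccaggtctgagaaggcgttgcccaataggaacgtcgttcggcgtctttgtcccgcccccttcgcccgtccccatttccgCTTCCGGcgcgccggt
The Atp5j window shown held the NRF1, ETS and YY1 cores, while its other window, with 43 CpG, held none of the 4 motifs. The Atp5l window held the NRF1 core, the ETS core and the E-box, and the Cox6a1 window held the NRF1 and ETS cores. Over whole windows, the NRF1 core occurred in 9 of 71 member windows (12.7%), against 1.87% of 32851 mouse promoter windows and 3.58% of windows of genes at 1 FPKM or more in any library. For the YY1 core the shares were 16.9%, 2.75% and 3.91%, for the ETS core 19.7%, 8.86% and 15.8%, and for the E-box 12.7%, 7.15% and 9.80%. These are matches of letters and show no binding.

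The next pair of promoters belongs to isoforms of complex IV with tissue-restricted use, and is shown for its CpG dinucleotides, the sites that DNA methyltransferases act on. Capitals mark each CpG.
Cox7a1, chr7:30183921-30184170, + strand: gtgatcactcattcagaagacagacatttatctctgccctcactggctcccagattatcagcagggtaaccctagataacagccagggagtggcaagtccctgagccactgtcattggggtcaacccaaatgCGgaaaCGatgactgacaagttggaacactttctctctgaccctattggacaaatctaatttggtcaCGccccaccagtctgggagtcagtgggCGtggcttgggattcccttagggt
Cox6b2, chr7:4753095-4753344, - strand: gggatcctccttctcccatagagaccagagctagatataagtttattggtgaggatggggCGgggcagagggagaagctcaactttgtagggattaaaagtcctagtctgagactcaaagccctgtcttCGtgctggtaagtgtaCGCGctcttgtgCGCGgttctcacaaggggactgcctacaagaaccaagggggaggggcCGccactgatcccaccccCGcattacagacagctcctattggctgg
Whole windows held 7 CpG in Cox7a1, 10 in Cox6b2 and 2 in Cox8b. The median was 19 in windows of common subunits, with a range from 5 to 43, and 7 over all promoter windows. The median over windows of genes at 1 FPKM or more was 20. DNA methylation was not measured in the libraries described here.

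The members were among the most abundant genes in every library. FPKM divides the fragments of a gene by its transcript length and by the library's reads, so that levels of genes can be set side by side. The members are short, with a median transcript length of 724 bases against 2238 over all genes. How short transcripts were handled is not given in the sources used here, so comparisons between genes are rough. Of the 80 members, 77 stood at 1 FPKM or more in all 4 libraries. The median common subunit had a level of 244.9 FPKM in WT_ES against 77.2 in WT_NP, and of 260.2 in DKO_ES against 131.8 in DKO_NP. The median over all 80 members exceeded 96.6% of gene symbols in WT_NP and 97.5% in DKO_ES, the lowest and highest of the 4 libraries. Complex I stood lowest: its members had a median of 136.3 FPKM in WT_ES, against 327.0 for complex III, 516.3 for the 11 common subunits of complex IV and 399.5 for complex V. Over all 18 members of complex IV, the set like those of the other complexes, the median was 247.8 FPKM, below complexes III and V.

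Atp5b, the catalytic beta subunit of the ATP synthase, was the most abundant member of 3 libraries, at 1612 FPKM in WT_ES, 345 in WT_NP and, in the knockout, 1594 in DKO_ES and 708 in DKO_NP. Cox4i1, the largest nuclear-encoded subunit of complex IV, followed in WT_ES and led in WT_NP, at 1106 FPKM in WT_ES against 363 in WT_NP, with 793 in DKO_ES against 478 in DKO_NP. In complex I the accessory subunit gene Ndufa7 was the highest in 3 libraries, at 829.5 FPKM in WT_ES, 224 in WT_NP and, in the knockout, 731 in DKO_ES and 309.5 in DKO_NP. Besides the core subunits, the 29 other subunits named for complex I ranged from 24.6 FPKM (Ndufs5) to 829.5 in WT_ES. The order of the genes was much alike in all libraries: over the 70 common subunits, Pearson's r of log2 FPKM was 0.98 between WT_ES and DKO_ES, 0.95 between WT_ES and WT_NP, 0.97 between DKO_ES and DKO_NP and 0.98 between WT_NP and DKO_NP. These describe genes, which share a library and are not replicates.

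**Figure D1:**
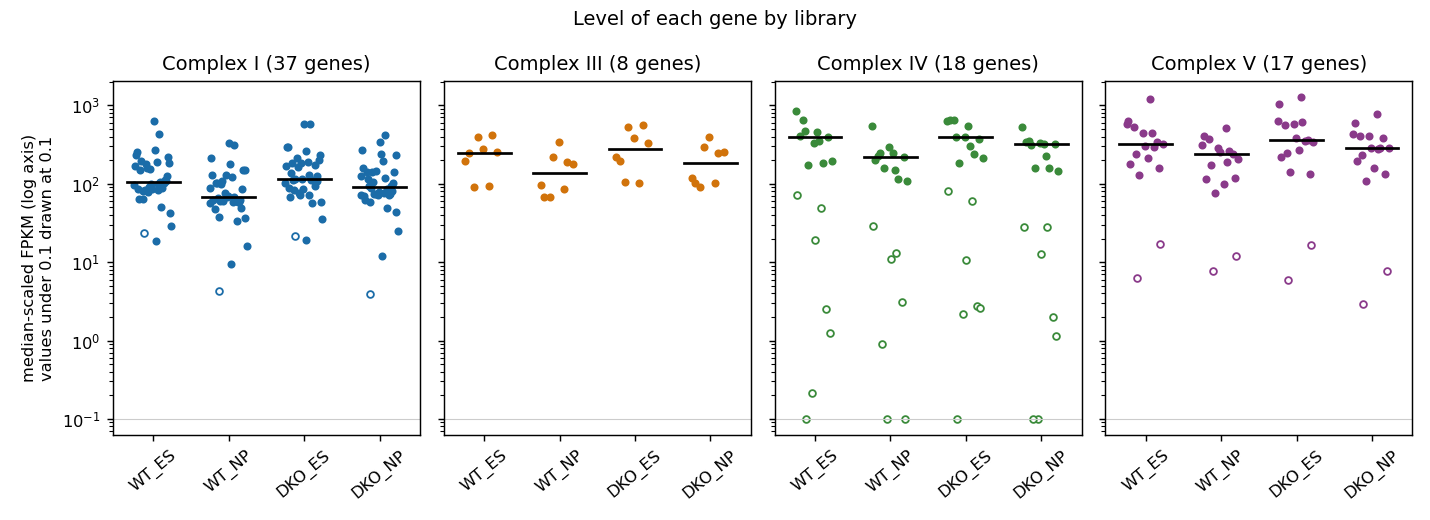
Median-scaled FPKM (log axis) of each member in the 4 libraries, by complex; filled points are common subunits, open points are tissue isoforms, paralogs and genes that are not subunits, and black lines are medians of the common subunits. The line of each complex is lower in WT_NP than in the other 3 libraries, and the open points of complex IV spread from under 0.1 to near 100.

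Several facts of the libraries bear on the comparisons. As deposited, the median gene differed between libraries by a log2 ratio of -0.82 from WT_ES to WT_NP, -0.43 from DKO_ES to DKO_NP, -0.06 from WT_ES to DKO_ES and 0.39 from WT_NP to DKO_NP, so libraries were scaled to a common median gene, with factors of 1.32 for WT_ES, 1.25 for DKO_ES, 0.671 for WT_NP and 0.908 for DKO_NP. All ratios and folds below are of scaled values and thus relative to that median gene, while levels in FPKM are as deposited. From wild-type to knockout embryonic stem cells the level of Dnmt3a was 35.3 and 12.3 FPKM and that of Dnmt3b 140.3 and 13.9 FPKM, lower but not at 0; in neural progenitor cells they were 17.2 and 4.14, and 9.98 and 5.22 FPKM. Summed over 6 pluripotency markers the level was 6459 FPKM in WT_ES against 91.5 in WT_NP and 7471 in DKO_ES against 402.8 in DKO_NP, with all 6 above 1 FPKM everywhere. Summed over 6 neural progenitor markers it was 24.9, 43.9, 31.7 and 177.7 FPKM in the same order. After scaling to the median gene this neural sum was 18.9 in WT_ES against 65.5 in WT_NP, and 25.3 in DKO_ES against 195.7 in DKO_NP, so the library labelled WT_NP stood above both embryonic stem cell libraries and below DKO_NP. Sums over 5 primitive erythroid markers were 2.21, 771, 2.40 and 74.7 FPKM, over 6 endoderm markers 3.59, 117.6, 1.58 and 21.8, and over 4 mesoderm and vessel markers 1.45, 41.2, 1.76 and 13.4. Over 4 postmitotic neuron markers they were 200.7, 8.40, 185.2 and 41.0 FPKM, mostly from Stmn2 and Tubb3. That sum went the other way from the neural progenitor sum, with both embryonic stem cell libraries the highest. In such mixtures a lower share of cells of a type and less RNA per cell cannot be told apart.

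In the library labelled WT_NP, levels of oxidative phosphorylation transcripts relative to the median gene were lower than in WT_ES. WT_NP also held primitive erythroid and endoderm markers (771 and 117.6 FPKM in sum, against 43.9 for neural progenitor markers). The part of such cells in the result was not tested. Between WT_ES and WT_NP the median log2 ratio was -0.62 over the 78 members at 1 FPKM or more in either library, with an interquartile range from -0.90 to -0.45, against 0.01 over 14086 genes. The ratio, on log2(scaled FPKM + 1), was below 0 for 75 of 78 members, against 6952 of 14086 genes. At least 2-fold lower were 14 of 78 members (11.3% of all genes), and at least 1.5-fold lower were 44 (23.1% of all genes); 0 were at least 2-fold higher (16.2% of all genes). As deposited, without scaling, 75 of 78 were at least 2-fold lower (41.7% of all genes). Other abundant genes also stood lower. The 1832 other genes with a mean of 50 scaled FPKM or more in the 4 libraries had a median of -0.42. The members lay 0.21 below such genes, although this floor does not match the sets in level. Of these 1832 genes, 1348 were below 0. At least 2-fold lower were 17.1% of them, near the 17.9% of members, whose count includes Cox8c, listed at 0 in WT_NP. At least 1.5-fold lower were 39.1% of them, against 56.4% of members. Other genes under 1.5 kb in transcript length, a class that holds 65 of the 80 members, had a median of -0.16. The members also lay closer together than genes at large, with an interquartile range 0.45 wide against 1.19 over all genes and 0.84 over the other genes at 50 scaled FPKM or more.

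**Figure D2:**
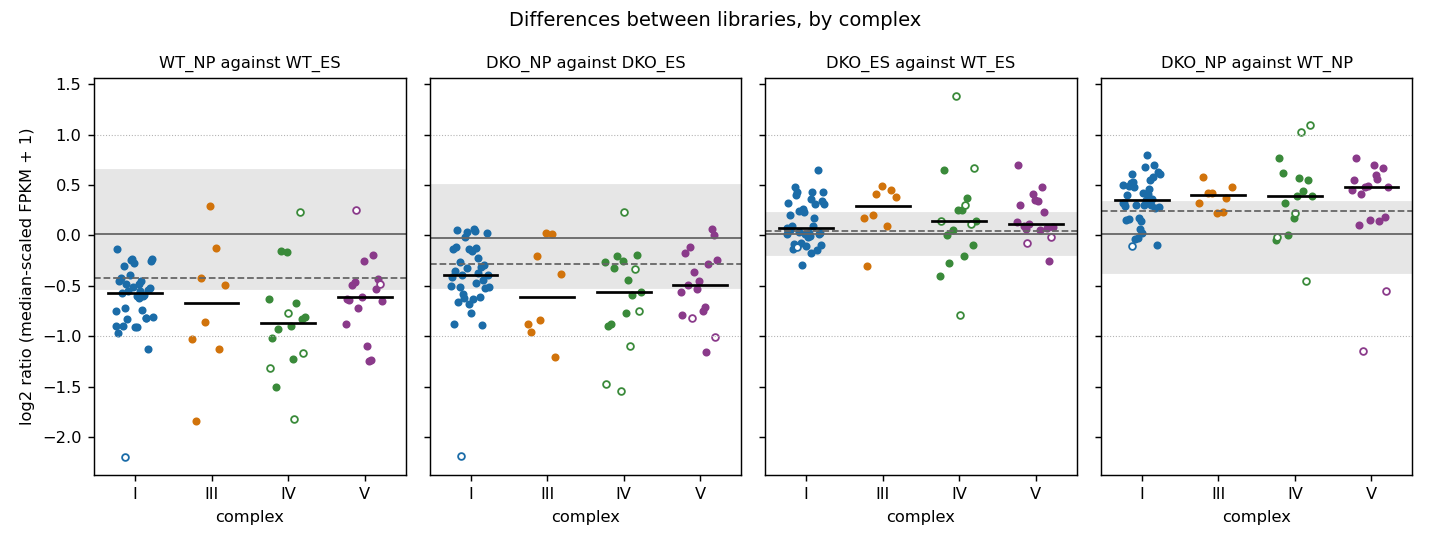
Log2 ratio (median-scaled FPKM + 1) of each member by complex in the 4 comparisons; filled points are common subunits, open points the other members, black lines the medians of each complex. The grey band is the interquartile range of all genes, the solid grey line their median and the dashed line the median of other genes at 50 scaled FPKM or more; in WT_NP against WT_ES all 4 black lines lie below the dashed line, and in DKO_NP against WT_NP all 4 lie above it.

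By complex, the median log2 ratio from WT_ES to WT_NP was -0.57 for complex I (37 members), -0.67 for complex III (8), -0.87 for complex IV (16 at 1 FPKM or more) and -0.61 for complex V (17). The interquartile range was narrowest in complex V, 0.26 wide, followed by complex I at 0.37, complex IV at 0.52 and complex III at 0.70. In complex I the 7 core subunits, which carry the flavin and the iron-sulfur clusters, lay between -0.75 (Ndufv1, which binds NADH and the flavin) and -0.27 (Ndufs3), and 0 of them were 2-fold lower. Among the 29 other subunits named for complex I only Ndufb2, of the membrane arm, was at least 2-fold lower; it stood at 143 FPKM in WT_ES against 32.9 in WT_NP, with 137 in DKO_ES against 73 in DKO_NP. The fold between wild-type libraries was 2.22-fold lower (2.12 to 2.32), where the range in parentheses, here and below, is the 95% counting interval. Exons of Ndufb2 overlap Braf and other genes, and reads of overlapping genes cannot be told apart without strand. Ndufa3, another accessory subunit, lay closest to the median gene, at a log2 ratio of -0.14.

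Complex III ranged the most widely, with 4 of its 8 members at least 1.5-fold lower (23.1% of all genes). Uqcrq, a small subunit of the membrane part, stood at 322 FPKM in WT_ES, 45.3 in WT_NP and, in the knockout, 247 in DKO_ES and 91.9 in DKO_NP. WT_NP was thus the lowest library and DKO_NP the next lowest. Between wild-type libraries Uqcrq was 3.62-fold lower (3.34 to 3.92), the largest difference of any common subunit. Uqcr10, another small membrane subunit, was 2.19-fold lower (2.07 to 2.31), and Uqcrc1, a core protein on the matrix side, was 2.05-fold lower (1.97 to 2.13). Uqcrh, the hinge protein beside cytochrome c1, went the other way, at 365 FPKM in WT_ES against 227 in WT_NP, with 486 in DKO_ES against 359 in DKO_NP. It was 1.22-fold higher (1.16 to 1.29) in WT_NP after scaling, the only common subunit above 0, although its deposited value was lower there. The Rieske iron-sulfur protein gene Uqcrfs1, which passes the electron to cytochrome c1, lay between, at a log2 ratio of -0.42, near Uqcrb at -0.49. The core protein gene Uqcrc2 lay at -0.12, against -1.03 for its partner Uqcrc1.

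Complex IV had the largest share of low subunits, with 9 of its 11 common subunits at least 1.5-fold lower (23.1% of all genes). Cox8a, the smallest subunit, stood at 850.4 FPKM in WT_ES, 152 in WT_NP and, in the knockout, 807 in DKO_ES and 317 in DKO_NP. It was 2.84-fold lower (2.73 to 2.97) in WT_NP. Cox5a, a subunit on the matrix side, stood at 464 FPKM in WT_ES against 101 in WT_NP, with 382 in DKO_ES against 204 in DKO_NP. It was 2.34-fold lower (2.23 to 2.46), and Cox6c was 2.03-fold lower (1.94 to 2.12). Cox6a1 stood at 516 FPKM in WT_ES against 147 in WT_NP, with 460 in DKO_ES against 293 in DKO_NP. It was 1.78-fold lower (1.7 to 1.87) in WT_NP. Cox6b1, which caps the side that meets cytochrome c, and Cox7a2l, which joins complexes III and IV into supercomplexes, differed least, at log2 ratios of -0.17 and -0.16.

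In complex V the catalytic subunit gene Atp5b was 2.38-fold lower (2.34 to 2.41), against -0.88 on the log2 scale for its partner Atp5a1. The other subunits of the F1 head and shaft (Atp5c1, Atp5d and Atp5e) lay between -0.47 and -0.25. All 4 subunits of the peripheral stalk that holds the head in place were below 0, from -0.72 (Atp5j) to -0.20 (Atp5h). Of the membrane subunits that bring ATP synthase dimers together, Atp5l stood at 583 FPKM in WT_ES, 126 in WT_NP and, in the knockout, 771 in DKO_ES and 251 in DKO_NP. It was 2.36-fold lower (2.25 to 2.48), but 8 pseudogene transcripts at least 95% identical to it are annotated, and how reads that match several places were counted is not given in the sources used here. The pair Atp5k and Atp5j2, of the same membrane group, lay at -0.63 and -0.61.

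The genes furthest below the median gene included isoforms that most tissues do not use. Cox7a1, the heart and muscle isoform of subunit 7a, stood at 64.6 FPKM in WT_ES against 8.79 in WT_NP, with 76 in DKO_ES against 25.2 in DKO_NP. It was 3.74-fold lower (3.09 to 4.55) in WT_NP. Cox6b2, the testis isoform of subunit 6b, stood at 95.5 FPKM in WT_ES, 19.1 in WT_NP and, in the knockout, 101 in DKO_ES and 25.7 in DKO_NP, and was 2.54-fold lower (2.21 to 2.92). Ndufa4l2, a paralog of Ndufa4 known to be induced by hypoxia, stood at 30.6 FPKM in WT_ES against 2.87 in WT_NP, with 26.8 in DKO_ES against 3.56 in DKO_NP, and was 5.42-fold lower (4.35 to 6.82). For all 3 genes both embryonic stem cell libraries were above both neural progenitor libraries. Of 6 cardiac and skeletal muscle markers, sums were 15.7 and 27.1 FPKM in WT_ES and WT_NP and 13.0 and 15.1 FPKM in DKO_ES and DKO_NP, mostly from Myl7, while Myod1 stayed under 0.1 FPKM. Muscle cells as a source of Cox7a1 RNA were not tested beyond these levels.

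The remaining isoforms of complex IV were near absence. Cox4i2, the lung isoform, stood between 1.81 and 3.47 FPKM. Cox8c, the testis isoform, stood at 1.64 FPKM in WT_ES, at 3.22 in DKO_ES and at 1.03 in DKO_NP and was listed at 0 in WT_NP. Cox8b, the heart isoform, was listed at 0 in 3 libraries and at 0.607 FPKM in WT_NP. Cox6a2, the heart and muscle isoform of subunit 6a, was listed at 0 in WT_NP and stood at 0.28 FPKM in WT_ES; its values in the knockout were 2.7 (DKO_ES) and 0.0769 FPKM (DKO_NP). A listed 0 can be a failed estimate, so no fold is given against it.

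Shares within isoform sets compare genes inside 1 library and do not depend on scaling between libraries. Cox7a1 made up 21.1% (19.4% to 22.9%) of the summed FPKM of Cox7a1 and Cox7a2 in WT_ES and 10.2% (8.72% to 11.9%) in WT_NP, with counting intervals in parentheses. In the knockout libraries its share was 20.4% (18.9% to 22%) in DKO_ES and 15.1% (13.5% to 16.7%) in DKO_NP. The share of Cox6b2 in its pair with Cox6b1 was 18.1% in WT_ES and 8.91% in WT_NP, with 17% in DKO_ES and 7.92% in DKO_NP. Both isoforms therefore had larger shares in the embryonic stem cell libraries, in either genotype. The genes Atp5g1, Atp5g2 and Atp5g3 encode the same mature protein of the rotating c-ring, and Atp5g1 held 19.6% of their sum in WT_ES, then 13.8% in WT_NP, then 22.5% in DKO_ES and 17% in DKO_NP. Atp5g3 held 31.7%, 33.5%, 30.2% and 40.2% in the same order, so that its share stood highest in DKO_NP.

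**Figure D3:**
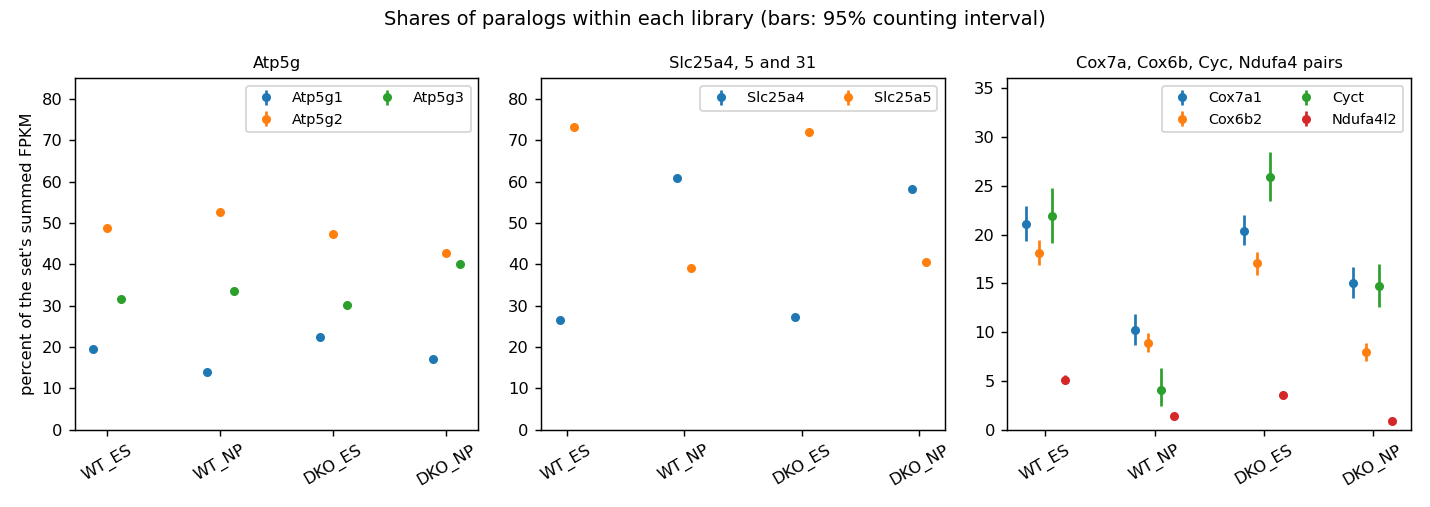
Share of each gene in the summed FPKM of its set (percent) in the 4 libraries, with 95% counting intervals; the left panel shows the 3 c-ring genes, the middle panel the ADP/ATP carriers Slc25a4 and Slc25a5, and the right panel the minor gene of 4 pairs. Slc25a4 holds 26.4% in WT_ES and 61.0% in WT_NP, and Cox7a1 21.1% and 10.2%.

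In the double knockout, too, most members stood lower in the library labelled DKO_NP than in DKO_ES. Between DKO_ES and DKO_NP the median log2 ratio was -0.44 over 79 members, with an interquartile range from -0.73 to -0.21, against -0.03 over 14050 genes and -0.28 over other genes at 50 scaled FPKM or more. At least 2-fold lower were 7 members (11.2% of all genes) and at least 1.5-fold lower 27 (22.3% of all genes); 0 were at least 2-fold higher (11.8% of all genes). As deposited, 30 were at least 2-fold lower (21.8% of all genes). The share at least 2-fold lower was thus near that of all genes, and the medians of the complexes were -0.39, -0.62, -0.56 and -0.49 for I, III, IV and V.

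Common subunits at least 2-fold lower in DKO_NP were Uqcr10, 2.31-fold lower (2.2 to 2.43), and Atp5l, 2.23-fold lower (2.14 to 2.32). The isoforms past that size were Ndufa4l2, 5.48-fold lower (4.33 to 7), Cox6b2, 2.84-fold lower (2.47 to 3.27), Cox7a1, 2.19-fold lower (1.89 to 2.53), and Cox6a2, which had about 1 read in DKO_NP. The seventh, Atp5sl, was 2.15-fold lower (1.88 to 2.46) and is not a subunit. The highest member was Cox4nb, not a respiratory subunit, at a log2 ratio of 0.24. Among common subunits, Ndufa12, an accessory subunit of the matrix arm, and Atp5g3 were the highest, at log2 ratios of 0.07 and 0.07.

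In embryonic stem cells most ratios between the double knockout and the wild type were small. The median log2 ratio of DKO_ES to WT_ES was 0.12 over 79 members, against 0.01 over 13596 genes. Above 0 were 58 of 79 members, against 7005 of 13596 genes and 1011 of 1813 other genes at 50 scaled FPKM or more. At least 2-fold higher was 1 member (2.56% of all genes) and 0 were at least 2-fold lower (1.15% of all genes). At least 1.5-fold higher were 5 members (6.99% of all genes) and at least 1.5-fold lower was 1 (4.38% of all genes). The medians were 0.07, 0.29, 0.15 and 0.12 for complexes I, III, IV and V, and the counts lay near the shares of all genes. Summed over 5 fibroblast markers, listed as a possible sign of feeder cells, the level was 60.4 FPKM in WT_ES (5 of 5 at 1 FPKM or more) against 15.6 in DKO_ES (3 of 5). Most of both sums was Tagln, at 40.5 and 9.18 FPKM. Col1a1, Col1a2 and Col3a1 were also lower in DKO_ES, while Thy1 was not (4.61 and 4.81 FPKM). The part of feeder cells in these ratios was not tested.

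The 1 member past 2-fold was Cox6a2, 10.2-fold higher (3.14 to 52.3), on about 3 reads in WT_ES. Atp5k stood at 830.3 FPKM in WT_ES, 272 in WT_NP and, in the knockout, 1285 in DKO_ES and 539 in DKO_NP. It was 1.63-fold higher (1.57 to 1.7) in DKO_ES, and Cox6c and the X-linked Ndufa1 were 1.57-fold higher (1.52 to 1.63) and 1.58-fold higher (1.45 to 1.72). Both other X-linked members stood on either side of 0, Ndufb11 at -0.30 and Cox7b at 0.15. Cox6c, like Atp5l and Atp5k, has annotated pseudogenes at least 95% identical to it. On the lower side, Cox4nb, not a respiratory subunit, was 1.79-fold lower (1.62 to 1.98), and Cox4i1 was 1.32-fold lower (1.29 to 1.36). The catalytic Atp5b hardly differed, at a log2 ratio of 0.06.

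Between neural progenitor libraries most members stood higher in the double knockout. The median log2 ratio of DKO_NP to WT_NP was 0.40 over 78 members, with an interquartile range from 0.18 to 0.55, against 0.01 over 13601 genes and 0.25 over other genes at 50 scaled FPKM or more. The ratio was above 0 for 69 of 78 members, against 6932 of 13601 genes and 1339 of 1834 other genes at 50 scaled FPKM or more. At least 2-fold higher were 2 (4.76% of all genes), at least 1.5-fold higher 14 (11.9% of all genes) and at least 2-fold lower 1 (7.99% of all genes). As deposited, 17 were at least 2-fold higher (10.2% of all genes). The complexes were close to each other, with medians of 0.35, 0.40, 0.39 and 0.48 for I, III, IV and V. The same pair of libraries differed in the sums of pluripotency markers (91.5 FPKM in WT_NP and 402.8 in DKO_NP), of neural progenitor markers (43.9 and 177.7) and of primitive erythroid markers (771 and 74.7), and the part of these cells in the result was not tested.

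Cox7a1 was 2.12-fold higher (1.73 to 2.61) in DKO_NP, the largest fold upward among members at 5 FPKM or more in either library. The other member past 2-fold was Cox8c, listed at 0 in WT_NP. Ndufc2, of the membrane arm of complex I, stood at 132 FPKM in WT_ES against 45.3 in WT_NP, with 161 in DKO_ES against 107 in DKO_NP. It was 1.75-fold higher (1.61 to 1.89), and the peripheral stalk subunit gene Atp5f1 and Cox6c were each 1.71-fold higher. Atp5f1 also overlaps Wdr77 on the opposite strand. Several subunits with low ratios in the wild-type differentiation were higher in DKO_NP: Uqcrq was 1.5-fold higher (1.37 to 1.64), Cox5a 1.49-fold higher (1.41 to 1.57), Cox8a 1.54-fold higher (1.47 to 1.61) and Atp5b 1.52-fold higher (1.49 to 1.54). These genes were picked for low values in WT_NP, which is also the base of these folds, so part of each fold can be built in. Uqcr10 and Uqcrc1, also at least 2-fold lower in WT_NP than in WT_ES, were 1.3-fold higher (1.22 to 1.38) and 1.25-fold higher (1.2 to 1.31). Cox4i1 and Ndufa6 lay just below 0, at log2 ratios of -0.04 and -0.09. Atp5s, the coupling factor, was 2.63-fold lower (2.1 to 3.32).

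Set side by side, both differentiations ranked the common subunits alike. They share no library, and over 70 genes Pearson's r between the log2 ratios was 0.70 and Spearman's rho 0.69, given as a description. The same values over other genes are not given here, so this likeness is not shown to be particular to the subunits. At least 1.5-fold lower in both were 18 of 70, or 25.7%, against 15.2% of all genes and 20.4% of other genes at 50 scaled FPKM or more. The wild-type ratio was the lower one for 56 of 70, against 7358 of 14713 genes and 1265 of 1838 other genes at 50 scaled FPKM or more. The difference of the ratios, knockout minus wild type, had a median of 0.22 over 79 members, against 0.00 over 14713 genes. Over other genes at 50 scaled FPKM or more it was 0.20, so the members differed from such genes by only 0.018. At least 1.5-fold higher were 11 members (11.4% of all genes), at least 2-fold higher 1 (4.31% of all genes) and at least 2-fold lower 2 (8.81% of all genes); as deposited, 14 were at least 2-fold higher (11.8% of all genes).

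Uqcrq had the largest positive difference of any common subunit, 0.88, from -1.84 in the wild type and -0.96 in the knockout. Cox5a followed at 0.78, then Ndufa12 and Ndufb2 at 0.69 each. Uqcr10 and Atp5l, low in both, differed by -0.08 and 0.08. Ndufa4l2 had nearly the same ratio in both genotypes, -2.20 and -2.19. Uqcrh was the common subunit with the largest negative difference, -0.27.

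**Figure D4:**
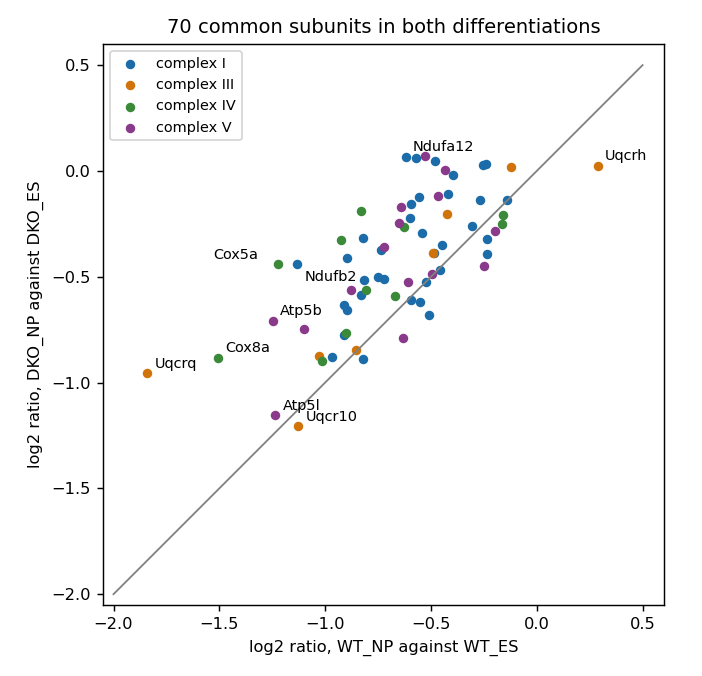
Log2 ratio of each of the 70 common subunits from embryonic stem cells to neural progenitor cells in the wild type (x axis) and in the double knockout (y axis), coloured by complex; the line marks equal ratios. Of the points, 56 lie above the line, and Uqcrq lies farthest left at -1.84.

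Other nuclear genes of the mitochondrion were read in the same way. The 8 subunit genes outside the rule had medians of -0.76 from WT_ES to WT_NP and -0.35 from DKO_ES to DKO_NP. At least 2-fold lower were 2 and 1 of 8 (11.3% and 11.2% of all genes). Cyc1, the cytochrome of complex III, stood at 227 FPKM in WT_ES, 53.5 in WT_NP and, in the knockout, 195 in DKO_ES and 124 in DKO_NP. It was 2.16-fold lower (2.07 to 2.26) in WT_NP. Ndufab1, the acyl carrier protein that is also a complex I subunit, stood at 111 FPKM in WT_ES against 30.8 in WT_NP, with 49.5 in DKO_ES against 49.7 in DKO_NP. It was already 2.13-fold lower (2.02 to 2.26) in DKO_ES, the only one of the 8 past 2-fold there. Cyct, the testis cytochrome c, stood at 16.2 FPKM in WT_ES, 0.756 in WT_NP and, in the knockout, 24.7 in DKO_ES and 7.81 in DKO_NP. It was 10.9-fold lower (6.66 to 18.9) in WT_NP and 7.64-fold higher (4.65 to 13.3) in DKO_NP than in WT_NP. Its share of the cytochrome c sum was 21.9% in WT_ES and 4.09% in WT_NP, with 25.9% in DKO_ES and 14.7% in DKO_NP.

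Among genes for the exchange of ATP, Slc25a31, the carrier of testis and germ cells, stood at 2.77 FPKM in WT_ES against 0.14 in WT_NP, with 10.9 in DKO_ES against 8.17 in DKO_NP. It was 4.14-fold higher (3.26 to 5.31) in DKO_ES than in WT_ES, and both knockout libraries were above both wild-type libraries. Germ cell markers (Dazl, Ddx4, Sohlh2 and Mael) summed to 80.9 and 3.34 FPKM in WT_ES and WT_NP and to 90.0 and 126.2 FPKM in DKO_ES and DKO_NP, and their part was not tested. The markers did not move together. From DKO_ES to DKO_NP, Dazl (22.0 and 55.7 FPKM) and Sohlh2 (21.5 and 54.0) were higher, while Ddx4 (16.3 and 6.66) and Mael (30.2 and 9.78) were lower. In DKO_ES against WT_ES, too, Dazl and Sohlh2 were higher and Ddx4 and Mael lower. Slc25a5, the carrier of dividing cells, was 3.15-fold lower (3.06 to 3.25) in WT_NP. Slc25a4, the carrier of muscle and brain, was 1.38-fold higher (1.34 to 1.42) there; it was chosen after its values were seen. The share of Slc25a4 in the carriers' sum was 26.4% in WT_ES and 61% in WT_NP, with 27.2% in DKO_ES and 58.3% in DKO_NP. The larger share thus belonged to Slc25a5 in both embryonic stem cell libraries and to Slc25a4 in both neural progenitor libraries.

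The 76 genes of mitochondrial ribosomal proteins, which translate the subunits encoded in mitochondrial DNA, had medians of -0.57 and -0.39 in the wild-type and knockout differentiations. At least 2-fold lower were 12 (15.8%) and 5 (6.58%), against 11.3% and 11.2% of all genes. At least 2-fold higher were 0, against 16.2% and 11.8% of all genes. Most counts of 2-fold lower genes in the lists below also lie near or under these shares of all genes. The 16 genes of the outer membrane, import and chaperones had medians of -0.80 and -0.45, with 5 and 2 at least 2-fold lower. Phb, a scaffold protein of the inner membrane, was 2.68-fold lower (2.57 to 2.8) in WT_NP, and the import motor Hspa9 was 2.58-fold lower (2.53 to 2.64). The 13 genes of the citric acid cycle had medians of -0.43 and -0.16, with 1 and 2 at least 2-fold lower, Idh3a being 2.72-fold lower (2.54 to 2.92) in WT_NP. Assembly factors of complex I (14 genes) and of complexes III to V (30) had medians of -0.29 and -0.18 in the wild type, with 1 and 4 at least 2-fold lower. In the knockout their medians were -0.42 and -0.21, with 1 and 0 at least 2-fold lower, so that the complex I factors lay near the members there. Among 16 regulators the median was -0.39 in the wild type and -0.17 in the knockout, with 1 and 0 at least 2-fold lower. The 1 was Gabpa, at 57.6 FPKM in WT_ES, 12 in WT_NP and, in the knockout, 60.0 in DKO_ES and 24.5 in DKO_NP. It was 2.44-fold lower (2.3 to 2.6) in WT_NP; its exons overlap those of Atp5j on the other strand. Nrf1, chosen after its values were seen, stood at 32 FPKM in WT_ES against 17.6 in WT_NP, with 29.8 in DKO_ES against 25.5 in DKO_NP, and its log2 ratio was 0.11 in the wild type. Yy1 stood at 59.3 FPKM in WT_ES against 27.1 in WT_NP, with 27.7 in DKO_ES against 37.7 in DKO_NP. Its log2 ratio was -0.15 in the wild-type differentiation and 0.88 in that of the knockout. In DKO_ES it was 2.03-fold lower (1.94 to 2.13) than in WT_ES.

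**Figure D5:**
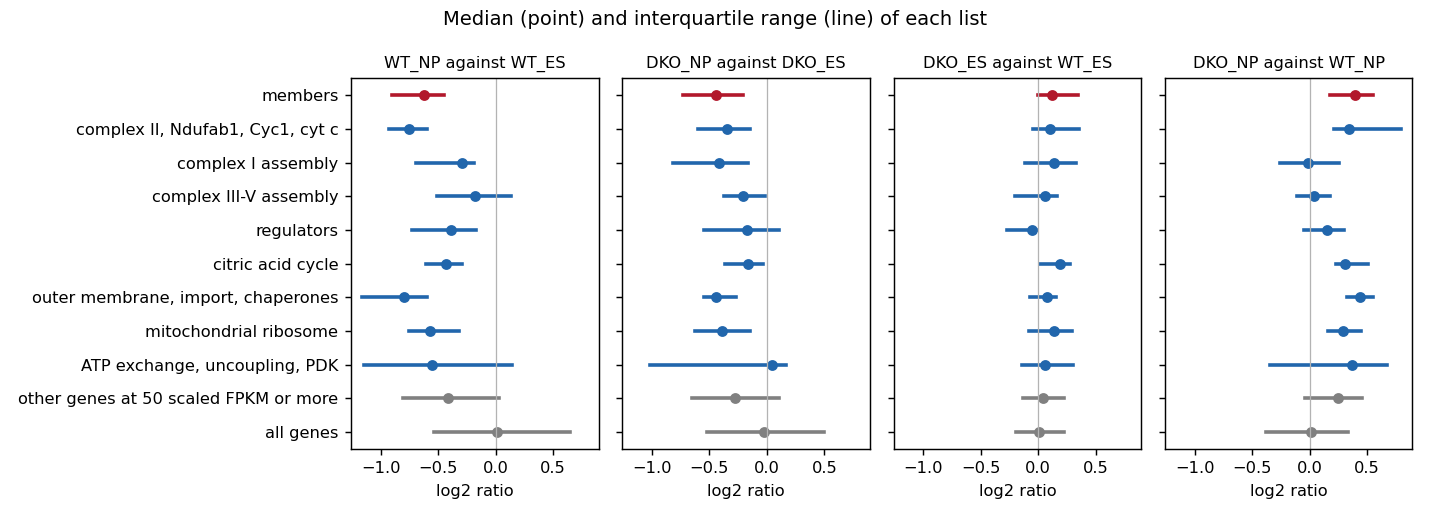
Median (point) and interquartile range (line) of the log2 ratio for the members (red), 8 other mitochondrial gene lists (blue) and 2 backgrounds (grey) in the 4 comparisons. In WT_NP against WT_ES the members, at -0.62, lie between the outer membrane and import list, at -0.80, and the assembly lists, at -0.29 and -0.18.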

How the data were processed

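RNA of 4 mouse cultures, 1 per group, was read from 5 µg of total RNA depleted of rRNA, with TruSeq libraries, 15 PCR cycles and single-end reads of 50 cycles on a HiSeq 2000, per the labels' protocols. Bowtie, TopHat and the build mm9 are named in the submitters' processing notes. Which program made the FPKM values, from which annotation, and how reads with several matches or of either strand were handled is not given in the sources used here. The authors deposited FPKM per gene symbol; 18 blank rows were left out.

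Members, gene lists and the rule for named genes were chosen with earlier results of these data known. The rule named members listed at 0, at a log2 ratio of 1 or more in size, highest in their complex, most extreme in a comparison at 5 FPKM or more, or in isoform sets, 39 in all, and up to 3 genes of each other list; further members were named after their values were seen, to describe a complex. Libraries were scaled by the median of ratios to the 4-library geometric mean. Log2 ratios used a pseudocount of 1 FPKM and genes at 1 FPKM or more in either library, and understate differences of low genes. Folds of single genes use no pseudocount. Their 95% Clopper-Pearson intervals rest on approximate reads, from steps in low values and transcript lengths of GENCODE M21: denominators were about 14.4 M reads for WT_ES, 15.5 M for DKO_ES, 37.3 M for WT_NP and 25.8 M for DKO_NP, and 42.0% to 43.3% of low genes tried gave whole reads within 5%, so the reads are rough. They cover counting error only, and PCR copies are not independent molecules. The floor of 3 reads in a 1 kb gene was 0.208 FPKM for WT_ES, 0.0804 for WT_NP and, in the knockout, 0.194 and 0.116. The median member had about 2300 reads in the lowest library. Pseudogenes were searched with blastn 2.17.0 (95% identity over 200 bases) and 17 of 80 members had a match; 21 of 80 share 50 or more exon bases with another gene. Scripts ran in Python 3.11.15 with pandas 2.3.3 and scipy 1.17.1. Scaling and ratios were tested on simulated data. Other scalings, filters, pseudocounts and member sets were tried; 3 backgrounds and member sets were chosen after seeing the data.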

Additional observations from a re-analysis of the deposited data

How the results depend on the processing

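Relative to the median of all genes, the members' median log2 ratio was -0.64 from WT_ES to WT_NP, -0.41 from DKO_ES to DKO_NP, 0.11 from WT_ES to DKO_ES and 0.38 from WT_NP to DKO_NP, with a difference of differentiations of 0.22; 0 of these 5 medians changed sign under any alternative run. The first became -0.76 as deposited and -0.54 with a filter at 5 FPKM. Against other genes at 50 scaled FPKM or more, chosen after seeing the data, the medians were -0.21, -0.16 and 0.15 for WT_NP against WT_ES, DKO_NP against DKO_ES and DKO_NP against WT_NP, and 0.018 for the difference; against other genes under 1.5 kb the differentiation medians were -0.47 and -0.23. Counts at least 2-fold lower in WT_NP than in WT_ES (14) were 75 as deposited, 9 with upper quartile scaling and 44 at 1.5-fold. In DKO_NP against DKO_ES, 7 became 30 as deposited, 3 without tissue isoforms and 27 at 1.5-fold. In DKO_ES against WT_ES, the 1 higher became 0 with a filter at 5 FPKM and 0 without isoforms, and 5 higher and 1 lower at 1.5-fold. In DKO_NP against WT_NP, the 2 higher became 17 as deposited, 1 with upper quartile scaling, 1 with a filter at 5 FPKM, 0 without isoforms and 14 at 1.5-fold, and the 1 lower became 0 as deposited and 0 with structural subunits only. For the difference, the 1 higher became 14 as deposited, 0 with upper quartile scaling, 2 with a pseudocount of 0.1, 0 with structural subunits only and 11 at 1.5-fold, and the 2 lower became 1 as deposited, 1 with a filter at 5 FPKM, 1 with structural subunits only and 1 without isoforms. The cause was not tested. With members that have a near-identical pseudogene left out, all 15 medians and counts stayed within the tolerance. No paired analysis was possible because each group holds 1 library. Read numbers are rough, so intervals of short genes may be too narrow, and genes at a few reads, such as Cox6a2, are limited by depth.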
